A study of Miniopterus schreibersii with 14 samples.

Results

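Digit I of the bat forelimb, the thumb, stays short and free, while digits II-V lengthen and carry the wing membrane. The 3 assembled components comp9440_c0, comp13934_c0 and comp13958_c0 were the ones with the smallest ratio of the score in forelimb digits II-V to the score in forelimb digit I, among 64618 components in all and 10394 whose mean score over these 2 libraries was at least 100. The choice was made among well-measured components without a stated minimum, and the minimum of 100 was taken because it returns these 3. The score is the authors' normalized read count per component and library, rounded to a whole number. The 3 were chosen by their values in digit I and digits II-V, so those values are given as a description, without a test. A component is an assembled sequence and may cover a transcript wholly or in part. No component identifier was found among the RefSeq gene names of the species (0 of 64618, against 22775 listed genes), so the components are described without a gene name or a known function.

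Messenger RNA came from 14 dissected parts of the autopod, the hand or foot region of the limb, of Miniopterus schreibersii embryos, a bent-wing bat, with 1 library per part. At stage S14 the forelimb and hindlimb buds were each cut into anterior, middle and posterior parts. At S15-17 3 tissues came as digits, namely forelimb digit I, forelimb digits II-V and hindlimb digits I-V. A further 3 were interdigital, from between forelimb digits I and II (interdigital I-II), from between forelimb digits II and V (interdigital II-V) and from the hindlimb. The fetal libraries held metacarpals of digits II-V and metatarsals of digits I-V. The labels give no genotype, treatment or age beyond the stage, and do not say whether a library pooled embryos or whether parts of 1 stage came from the same embryo. The hindlimb digit library includes the foot's own digit I, whereas the forelimb digit library II-V does not include the thumb. Summed over the components, 4550754 to 7648427 reads per library were recovered from the scores, as whole multiples of the score of 1 read (1.29 to 2.23). Reads outside the components are not in these totals. Since no part has a second library, intervals on single values and on ratios of 2 libraries are exact 95% intervals of the read counts and cover counting error only, not differences between embryos or dissections.

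As background, digits form from condensations in the autopod, and the digits take different identities along the axis from the anterior (thumb) edge to the posterior edge. Digit I comes from the anterior margin of the autopod, and signals from the posterior margin, among them Sonic hedgehog, pattern the more posterior digits. In most mammals the tissue between the digits regresses, but in the bat forelimb the tissue between digits II-V is kept and forms the wing membrane. Genes whose transcripts mark the anterior part of the early autopod and later the thumb are known from mouse and chick, and nothing in the files ties the 3 components to any of them.

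The score in digit I was the highest of all 14 libraries for each of the 3 components. For comp9440_c0 the lead over interdigital I-II lay within counting error, a ratio of 1.1 (0.948 to 1.27). So did that of comp13958_c0 over the anterior forelimb bud, 1.15 (0.95 to 1.4). The ratio to the next library, interdigital I-II, was 1.86 for comp13934_c0 (1.39 to 2.5). For comp13934_c0 the score was 229 in digit I and 9 in digits II-V, from 107 and 5 reads. For comp13958_c0 it was 500 and 43, from 234 and 25 reads. For comp9440_c0 it was 705 and 64, from 330 and 37 reads. The ratio of digits II-V to digit I was thus 0.0393, 0.086 and 0.0908 in that order. The next component outside the choice was comp11472_c0, at 265 in digit I and 30 in digits II-V, a ratio of 0.113, followed by comp10782_c1 at 280 and 42, a ratio of 0.15. Just under the minimum mean score lay comp16143_c0, at 143 and 2, and comp17097_c0, at 130 and 3, whose ratios of 0.014 and 0.0231 were smaller than those of all 3 members. Any minimum above 72.5 and up to 119 gives the same 3.

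**Figure D1:**
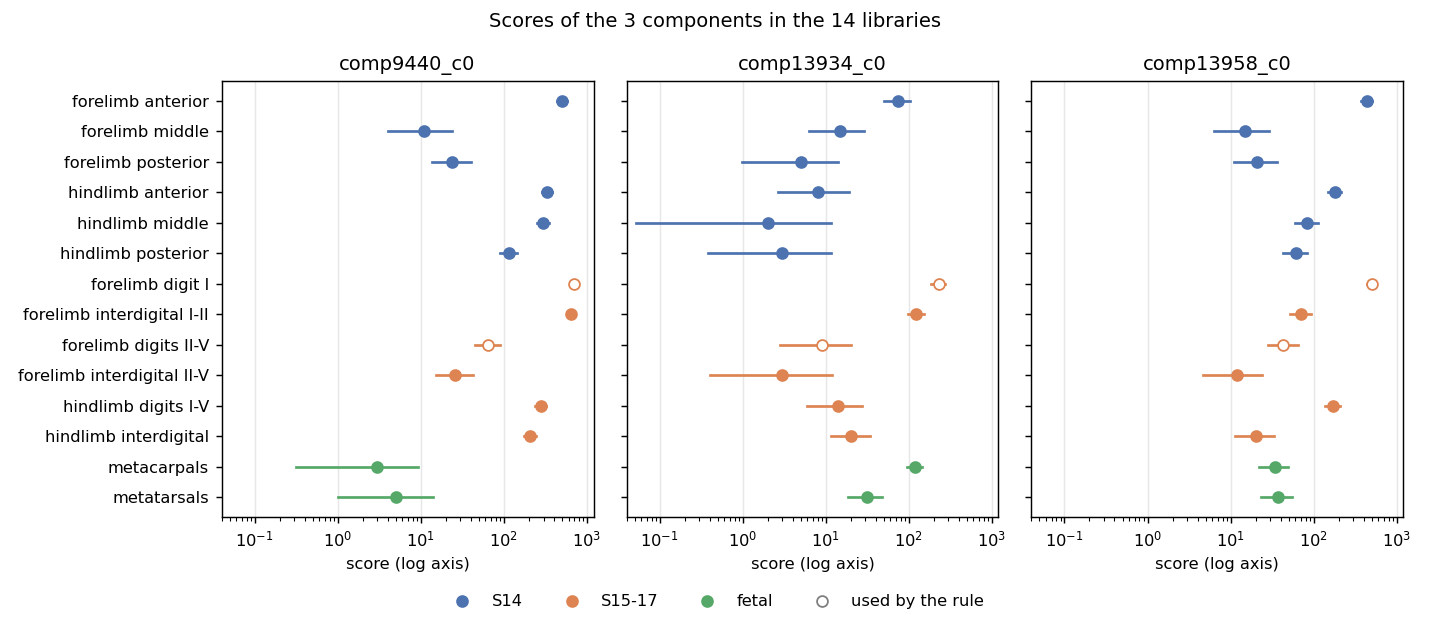
Scores of the 3 components in the 14 libraries on a log axis, with exact 95% counting intervals as bars, coloured by period; open circles mark the 2 libraries that chose the members. Digit I is highest in each panel, within counting error of the next library for comp9440_c0 and comp13958_c0. The anterior forelimb bud stands above the other forelimb bud parts in each.

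Within the S14 forelimb bud, whose libraries took no part in the choice, all 3 components were concentrated in the anterior part. Component comp9440_c0 scored 504 in the anterior, 11 in the middle and 24 in the posterior forelimb part. Component comp13958_c0 scored 433, 15 and 21 in the same order, and comp13934_c0 scored 74, 15 and 5. The anterior score was the highest of the 3 forelimb bud parts in every case. The anterior to middle ratio was 46 for comp9440_c0 (95% interval 20.8 to 127), 29.6 for comp13958_c0 (14.7 to 69.6) and 5.04 for comp13934_c0 (2.28 to 12.6). Between the posterior and the middle part the interval of the ratio held 1 for each component. In bulk tissue, fewer cells that make a transcript and less of it per cell cannot be told apart.

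The count of 3 of 3 members with an anterior score at least 4-fold above both other forelimb bud parts, on log2(score + 1), stands beside 44 of 20429 tested components, or 0.215%. The tested components are those whose score averaged at least 10 across the 14 libraries, which all 3 members passed. Against the middle part alone 0.847% of tested components reached 4-fold, and against the posterior part alone 1.12%.

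In the hindlimb bud the anterior part also scored highest for each component. Middle and posterior parts differed beyond counting error for comp9440_c0 only, with a middle to posterior ratio of 2.62 (1.96 to 3.53). The interval of that ratio held 1 for comp13958_c0 (0.856 to 2.19) and comp13934_c0 (0.011 to 12.5). Component comp9440_c0 scored 332 in the anterior, 298 in the middle and 114 in the posterior hindlimb part. Component comp13958_c0 scored 179, 83 and 61. Component comp13934_c0 was close to the limit of detection there, with 8, 2 and 3, from 5, 1 and 2 reads. The anterior to posterior ratio was 2.92 for comp9440_c0 (2.22 to 3.88) and 2.94 for comp13958_c0 (2.02 to 4.38), while that of comp13934_c0, 2.54, had an interval from 0.416 to 26.7. None of the 3 reached 4-fold between anterior and posterior hindlimb parts, as did 0.71% of tested components. Anterior and middle hindlimb parts differed by less than counting error for comp9440_c0, with a ratio of 1.12 (0.896 to 1.39).

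**Figure D2:**
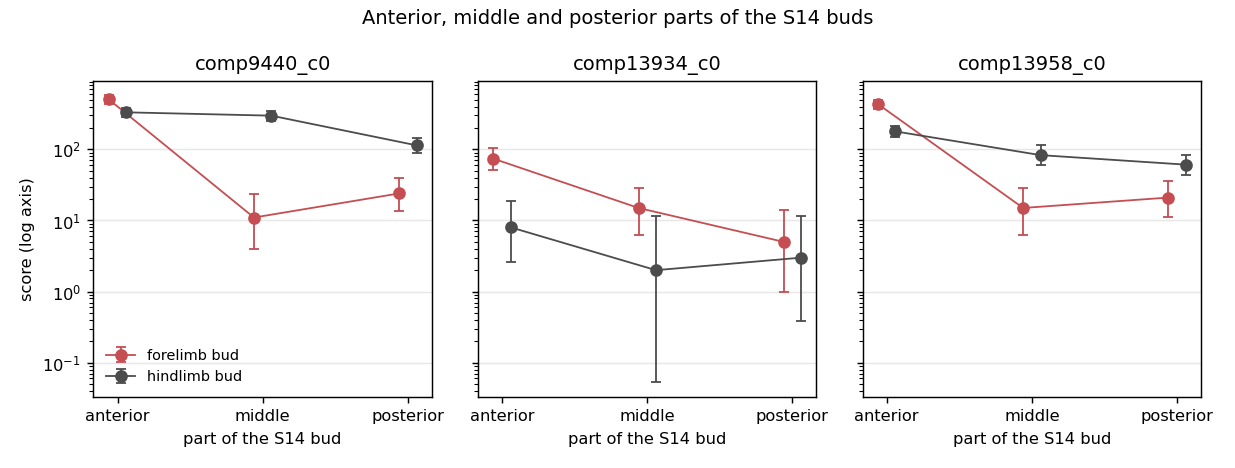
Scores in the anterior, middle and posterior parts of the S14 forelimb bud (red) and hindlimb bud (grey) on a log axis, 1 library per point, with exact 95% counting intervals. The drop from the anterior to the middle forelimb part, from 504 to 11 for comp9440_c0 and from 433 to 15 for comp13958_c0, has no counterpart of that size in the hindlimb bud.

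Over both limbs, the anterior minus posterior difference on the log2(score + 1) scale was 2.94 for comp9440_c0 (SE 1.23), 2.92 for comp13958_c0 (SE 0.92) and 2.41 for comp13934_c0 (SE 0.70), positive in forelimb and hindlimb for each. The median over all tested components was 0.01. None of the 3 passed limma across all components (adjusted p = 0.95 for each; unadjusted p = 0.067, 0.027 and 0.02). limma called 0 of 20429 components in this comparison, with 793 at an unadjusted p under 0.05. Without any filter 721 were called and with limma voom on the recovered reads 16, while adjusted p-values of the members ran from 0.135 to 0.952 over the 6 settings that keep all libraries.

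The anterior part was also set against the mean of the middle and posterior parts within each limb, in a fit chosen after these values were seen. The log2 difference was 4.53 in forelimb and 1.32 in hindlimb for comp13958_c0, 4.87 and 0.84 for comp9440_c0, and 2.94 and 1.38 for comp13934_c0. The forelimb excess over the hindlimb was 3.21, 4.02 and 1.56 in the same order and passed limma for none of the 3 (adjusted p = 0.81 for each), nor for any of the 20429 components, of which 1013 had an unadjusted p under 0.05. With no filter 3909 components were called for this excess and with a pseudocount of 0.25 34, without the 3 members. In forelimb alone limma called 0 components, with 2031 at an unadjusted p under 0.05. There comp13958_c0 had an adjusted p of 0.33, against 0.043 with no filter, where 2709 components were called, and 0.015 with voom on recovered reads, where 14 were called. Each limb has a single anterior library, so the spread in these fits comes only from the middle and posterior parts, and the p-values belong to components whose gradient had already been seen; they are no support for it.

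At S15-17 the interdigital tissue on the thumb side, also outside the choice, exceeded that of the wing for all 3 components. Component comp9440_c0 scored 643 in interdigital I-II, 26 in interdigital II-V and 206 in hindlimb interdigital tissue. Component comp13934_c0 scored 123, 3 and 20 in the same order, and comp13958_c0 scored 71, 12 and 20. Interdigital I-II was the highest and interdigital II-V the lowest of the 3 interdigital libraries each time. The ratio of interdigital I-II to II-V was 24.3 for comp9440_c0 (14.8 to 42.9), 37.2 for comp13934_c0 (9.98 to 312, from 85 and 2 reads) and 6.12 for comp13958_c0 (2.76 to 16). All 3 members were over 4-fold, as were 1.84% of tested components. These are comparisons of 1 library with 1, which have no replicate check.

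The foot lay between the thumb side and the wing in interdigital tissue. Hindlimb interdigital tissue exceeded interdigital II-V by a ratio of 7.78 for comp9440_c0 (4.64 to 14) and 6.18 for comp13934_c0 (1.44 to 55.7), 2 of 3 members over 4-fold beside 1.4% of tested components. For comp13958_c0 the ratio was 1.77, with an interval from 0.678 to 5.12 that holds 1. Interdigital I-II exceeded the foot by 3.13 for comp9440_c0 (2.6 to 3.79), 6.01 for comp13934_c0 (3.45 to 11.2) and 3.47 for comp13958_c0 (1.91 to 6.66). In this comparison 1 of 3 members, comp13934_c0, was over 4-fold on log2(score + 1), beside 1.12% of tested components.

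The components parted from each other in how digit and interdigital tissue compared. In the foot, comp13958_c0 scored 170 in digits and 20 in interdigital tissue, a ratio of 8.31 (4.8 to 15.4), and it was the only 1 of the 3 over 4-fold, as were 1.19% of tested components. Component comp9440_c0 scored 276 and 206 there, a ratio of 1.34 (1.07 to 1.69). Component comp13934_c0 scored 14 and 20, a ratio of 0.671 whose interval, 0.247 to 1.69, holds 1. On the thumb side, where digit I is high by choice, comp13958_c0 scored 500 in digit I and 71 in interdigital I-II, comp9440_c0 705 and 643, and comp13934_c0 229 and 123. In the foot's digits the scores of 276, 14 and 170 for comp9440_c0, comp13934_c0 and comp13958_c0 compare with 705, 229 and 500 in digit I and 64, 9 and 43 in digits II-V.

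**Figure D3:**
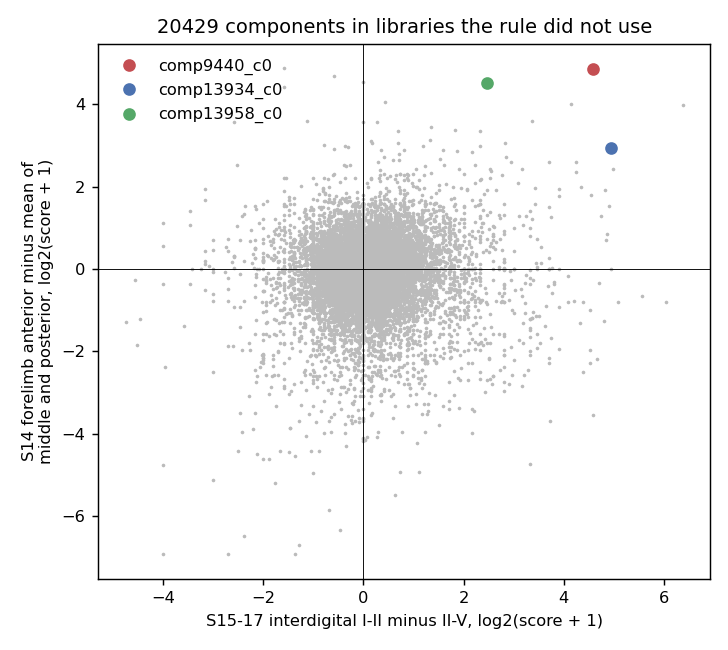
Each grey point is 1 of the 20429 tested components, with the S15-17 difference between interdigital I-II and II-V on the x axis and the S14 difference between the anterior forelimb part and the mean of the middle and posterior parts on the y axis, both on log2(score + 1), in libraries that did not choose the members. The 3 members lie at the upper right: comp9440_c0 at 4.58 and 4.87, comp13934_c0 at 4.95 and 2.94, comp13958_c0 at 2.47 and 4.53.

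Thumb-side interdigital tissue and the anterior forelimb bud were high together in few components. An anterior forelimb score at least 4-fold above both other forelimb bud parts, with interdigital I-II at least 4-fold above interdigital II-V, held for 11 of 20429 components (0.0538%), among them all 3 members. This pair of conditions was set after the members' values were seen. The 8 other components scored higher in digit I than in digits II-V in 6 cases, 3 of them by over 4-fold on log2(score + 1), with a median log2 difference of 1.93. Among the 3 was comp16143_c0, named above for its small ratio. The components scoring lower in digit I had only 2 and 3 reads in the anterior forelimb bud. They had as many in interdigital I-II and 0 in II-V, and their high scores, 108 to 894, were fetal. A further component had 3 and 0 reads in interdigital I-II and II-V. Low reads also bear on the 3 over 4-fold higher in digit I. Besides comp16143_c0, these had 5 and 13 reads in the anterior forelimb bud, and 3 and 5 in interdigital II-V. Over all tested components 46.6% were higher in digit I, 0.749% by over 4-fold, and the median was -0.01. No test was made on this list.

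The order of levels over the 14 libraries shows which neighbouring values the reads can tell apart. The choice set digit I against digits II-V only and favours high values in digit I, so its lead is given as a description. For comp9440_c0 digit I (705) and interdigital I-II (643) led, followed by the anterior forelimb bud at 504, the anterior and middle hindlimb buds at 332 and 298, the foot's digits at 276 and hindlimb interdigital tissue at 206. Below these came the posterior hindlimb bud at 114, digits II-V at 64, interdigital II-V at 26, the posterior and middle forelimb bud at 24 and 11, and the fetal libraries. For comp13958_c0 digit I (500) and the anterior forelimb bud (433) led, followed by the anterior hindlimb bud at 179. For comp13934_c0 digit I (229) was followed by interdigital I-II, which did not differ beyond counting error from the metacarpals, 123 against 119. Of the 11 neighbouring pairs in the order of the 12 libraries that took no part in the choice, the interval of the ratio held 1 in 6 for comp9440_c0, 9 for comp13934_c0 and 9 for comp13958_c0.

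The fetal long bones divided the 3 components. Component comp9440_c0 was nearly gone, at 3 in metacarpals and 5 in metatarsals, from 2 and 3 reads. Component comp13934_c0 was present at 119 in metacarpals and 31 in metatarsals, a ratio of 3.88 (2.35 to 6.74). Component comp13958_c0 scored 34 and 37, a ratio of 0.906 (0.497 to 1.66). The metacarpals are those of digits II-V, so the 119 of comp13934_c0 stood beside 9 in digits II-V and 3 in interdigital II-V at S15-17. None of the 3 was over 4-fold higher in metacarpals than in metatarsals on log2(score + 1), comp13934_c0 reaching a difference of 1.91, while 3.3% of tested components were.

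Against the S15-17 libraries other than digit I and digits II-V, with limb as covariate, comp9440_c0 was lower in the fetal libraries and fell by 5.18 on the log2(score + 1) scale (SE 1.08, limma adjusted p = 0.0064, 2 against 4 libraries). Its fetal scores lay below all 4, which ranged from 26 to 643. Of the tested components 30.8% were called lower in this comparison and 20.3% higher, so 1 of 3 members called lower is near the background, and the median difference of all components was -0.21. The call was lost with no filter (limma adjusted p = 0.053), with voom on recovered reads (0.11), without the metacarpals (0.073) and without the metatarsals (0.092). Component comp13934_c0 differed by 1.64 (SE 1.21, adjusted p = 0.29) and comp13958_c0 by -0.23 (SE 0.94, adjusted p = 0.85 in limma). The fetal and S15-17 libraries hold different tissues, so stage and dissection cannot be told apart.

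Between S14 and these 4 later libraries none of the 3 components passed the test. The log2 difference, S15-17 minus S14, was 0.70 for comp9440_c0 (SE 1.06, adjusted p = 0.64), 1.05 for comp13934_c0 (SE 0.94, adjusted p = 0.42) and -0.76 for comp13958_c0 (SE 0.94, adjusted p = 0.56) in limma. Scores of comp9440_c0 ran from 11 to 504 in the 6 bud libraries and from 26 to 643 in the 4 later ones. Those of comp13934_c0 ran from 2 to 74 and from 3 to 123, and those of comp13958_c0 from 15 to 433 and from 12 to 170. The ranges overlapped for each, and parts within a period lay farther apart than the period means. In this comparison 14.6% of tested components were called higher and 19.3% lower. Without interdigital II-V, comp13934_c0 had a difference of 2.20 (limma adjusted p = 0.046), and without interdigital I-II that of comp9440_c0 was -0.32. The S14 libraries are bud parts, while the later ones are interdigital tissues and the foot's digits. Stage and dissection therefore cannot be told apart here either.

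Forelimb and hindlimb were compared over the 5 matched pairs that leave out the digits. The interdigital pair sets interdigital II-V against the hindlimb. Component comp9440_c0 was lower in forelimb in 4 of 5 pairs, with log2 differences of -4.64 in the middle bud, -2.20 in the posterior bud, -2.94 in interdigital tissue and -0.58 in the metapodials, and 0.60 in the anterior bud. Component comp13958_c0 had the same signs, at 1.27 in the anterior bud, -2.39 and -1.49 in the middle and posterior bud, -0.69 in interdigital tissue and -0.12 in the metapodials. Component comp13934_c0 was higher in forelimb in the anterior, middle and posterior bud, at 3.06, 2.42 and 0.58, and in the metapodials, at 1.91, but lower in interdigital tissue, at -2.39. For comp13934_c0 the interval of the hindlimb to forelimb ratio held 1 in the middle bud (0.00321 to 1.06) and posterior bud (0.0555 to 5.8). In the metapodials the forelimb to hindlimb interval held 1 for comp9440_c0 (0.0446 to 4.66) and comp13958_c0 (0.497 to 1.66). In interdigital tissue the hindlimb to II-V interval held 1 for comp13958_c0 (0.678 to 5.12). The reads do not tell these differences from none. By score, the anterior bud was the only pair in which all 3 were higher in forelimb. The interdigital pair was the only one in which all 3 scored lower. With interdigital I-II in place of II-V all 3 were higher than hindlimb interdigital tissue, by 1.64 for comp9440_c0, 2.56 for comp13934_c0 and 1.78 for comp13958_c0, so that direction depends on which forelimb tissue is taken. In the anterior bud 1 of 3, comp13934_c0, was over 4-fold higher in forelimb, as were 0.837% of tested components. In the middle bud 2 of 3, comp9440_c0 and comp13958_c0, were over 4-fold higher in hindlimb, beside 0.886%, and in the posterior bud 1 of 3, comp9440_c0, beside 1.44%.

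**Figure D4:**
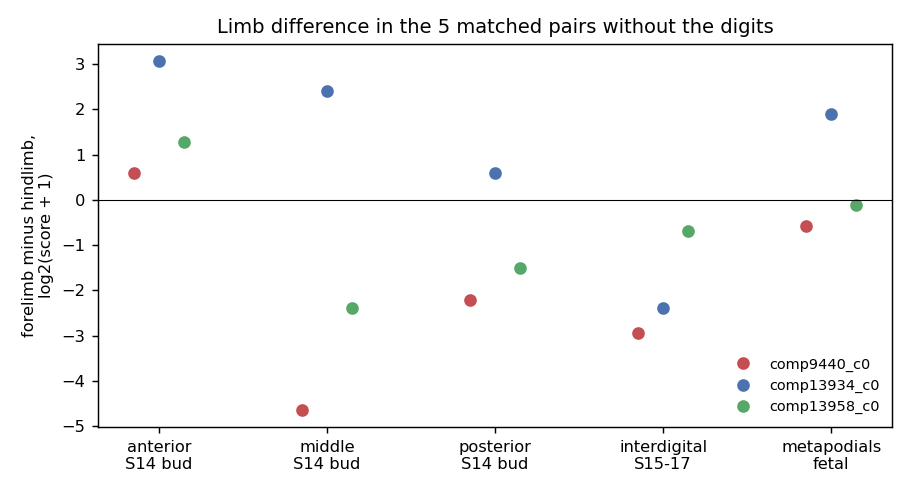
Forelimb minus hindlimb difference on log2(score + 1) in the 5 matched pairs without the digits, 1 point per component and pair, with 0 as equality; the interdigital pair is interdigital II-V against hindlimb interdigital tissue. All 3 points are above 0 in the anterior bud and all 3 below 0 in the interdigital pair, where the counting interval of comp13958_c0 held equality.

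Averaged over the 5 pairs, the limb difference was -1.95 for comp9440_c0 (SE 0.62, unadjusted p = 0.01, adjusted p = 0.73), 1.11 for comp13934_c0 (SE 0.69, adjusted p = 0.99) and -0.69 for comp13958_c0 (SE 0.45, adjusted p = 0.99) in limma with the pair as block. None of the 3 was called, while 0.0147% of tested components were called higher and 0.0294% lower. In the 3 bud pairs alone the differences were -2.08 (SE 1.01), 2.02 (SE 0.57) and -0.87 (SE 0.75) in the same order, with adjusted p-values of 0.50, 0.46 and 0.65 in limma. There limma called 0 of 20429 components, with 2187 at an unadjusted p under 0.05, and voom on recovered reads called 215, without the 3 members. The limb difference of the 2 later pairs minus that of the bud pairs was 0.32 for comp9440_c0 (SE 1.31), -2.26 for comp13934_c0 (SE 1.26) and 0.47 for comp13958_c0 (SE 0.94), none of which passed (limma adjusted p = 0.94, 0.51 and 0.86), with 0.00979% of tested components called higher and 0.0049% lower.

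The 3 components did not follow 1 common course. Over the 12 libraries other than digit I and digits II-V, Pearson's r of log2(score + 1) was 0.67 between comp9440_c0 and comp13958_c0, 0.228 between comp13934_c0 and comp13958_c0 and -0.0534 between comp9440_c0 and comp13934_c0. Without the fetal libraries these were 0.793, 0.367 and 0.477 over 10 libraries. The libraries share stage and dissection, so these r are descriptions.

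Components with the most similar course over these 12 libraries were sought among the 13116 with a mean score of at least 50. For comp9440_c0 they were comp2416_c0 (r = 0.911) and comp7753_c1 (r = 0.901). For comp13934_c0 they were comp13406_c0 (r = 0.873) and comp11887_c0 (r = 0.87), and for comp13958_c0 comp9617_c0 (r = 0.79) and comp1978_c0 (r = 0.771). All 6 had a narrower range than the member they resembled. The highest of the 12 scores was 2.92 times the lowest for comp2416_c0 and 1.58 times for comp13406_c0, against 214 times for comp9440_c0 and 61.5 times for comp13934_c0. In digit I and digits II-V, which the search did not use, comp11887_c0 scored 308 and 78, a ratio of 3.95, and comp9617_c0 scored 476 and 259, a ratio of 1.84. The other 4 had ratios between 0.891 and 1.16. The ranks moved with the setting. By Spearman's rank correlation comp2416_c0 and comp1978_c0 each ranked 33, while comp9617_c0 ranked 1. Without the fetal libraries comp7753_c1, comp9617_c0 and comp1978_c0 ranked 22, 24 and 26, while comp2416_c0 ranked 1. These r were picked as the highest among 13116 components and are high by that choice.

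Below that minimum score, the same search among 20428 components placed comp18052_c0 first for comp13934_c0 (r = 0.89), with scores of 13 in digit I and 12 in digits II-V. Component comp16143_c0 had rank 2 (r = 0.889) and comp17097_c0 rank 4 (r = 0.871). The last 2 are the components with a still smaller ratio of digits II-V to digit I, and they were singled out after their values were seen. Component comp16143_c0 scored 54, 11 and 0 in the anterior, middle and posterior forelimb bud, 82 and 0 in interdigital I-II and II-V, and 53 and 5 in metacarpals and metatarsals. Component comp17097_c0 scored 22, 5 and 2 in the forelimb bud parts, 94 and 2 in interdigital I-II and II-V, and 26 and 11 in the fetal bones. Both thus shared with comp13934_c0 the anterior forelimb bud, the thumb-side interdigital tissue and the metacarpals as their highest libraries after digit I. Over all 14 libraries they held 222 and 182 reads against 385 for comp13934_c0.

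**Figure D5:**
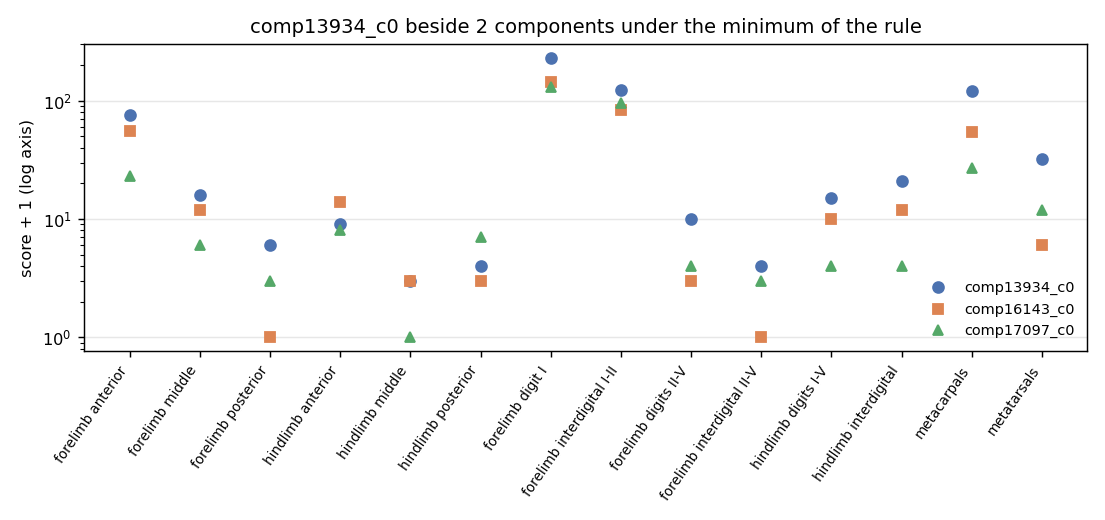
Score + 1 on a log axis in each of the 14 libraries for comp13934_c0 (circles), comp16143_c0 (squares) and comp17097_c0 (triangles). All 3 are highest in digit I, at 229, 143 and 130, and low in digits II-V, at 9, 2 and 3.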

How the data were processed

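TruSeq libraries were made from DNase-treated total RNA, per the labels' protocols. CASAVA 1.8, RSEM and edgeR appear in the submitters' processing notes, with no role or order; assembly and aligner are not given in the sources used here. The deposited score is a normalized count per component, scaled per library by the authors and rounded to whole numbers. In each library 99.969% to 100% of nonzero scores were exact rounded multiples of 1 step, which gave the reads.

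Scores were tested as log2(score + 1) with limma 3.58.1 (R 4.3.3) and its trended variance prior, over the 20429 components whose score averaged at least 10. p-values are two-sided, Benjamini-Hochberg adjusted over all of these and called under 0.05. No part has a replicate, so none of them measures the spread within a part. In the period fits they measure the spread between parts. In the limb and interaction fits they measure how far the limb difference varied from pair to pair. In the axis fit they measure how far the differences between parts varied between the limbs. Bud parts or matched pairs were blocks in the limb and interaction fits, and limb was a covariate in the others. Digit I and digits II-V entered no test. The tests were tried on simulated data in which parts differed only by set changes and by random noise set above counting error. That trial does not cover differences between tissues. Ratios have exact intervals at 95% confidence (Clopper-Pearson on reads). Values, ratios and plots were made in Python 3.11.15 (matplotlib 3.10.9, scipy 1.17.1, pandas 2.3.3, numpy 2.4.6).

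The members and lists were chosen with earlier results of these data known. Named are the members, the next 2 by the rule, and the 2 components most like each member; comp16143_c0 and comp17097_c0 were added after seeing their values. Alternatives were pseudocounts of 0.25 and 5, no filter, median-centred libraries, upper-quartile scaling, voom on recovered reads, no block, and leaving out each pair or library. The within-limb anterior fit and the likeness search at a mean score of at least 10 were added after seeing the data.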

Additional observations from a re-analysis of the deposited data

How the results depend on the processing

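With 1 library per part, the spread within a part was not measured, and scores under about 10 rest on a few reads. Of 309 values of the members under an alternative, 299 kept their direction and 10 reversed, none of them called; the cause was not tested. With voom on recovered reads, comp13958_c0 had an S14 limb difference of 0.084, and the limb by period interaction was -1.60 for comp9440_c0 and -0.37 for comp13958_c0. Leaving out pairs, that interaction ran from -0.96 to 1.66 for comp9440_c0 and from -0.29 to 1.54 for comp13958_c0. The fetal difference of comp13958_c0 ran from -0.82 to 0.48 and the S15-17 minus S14 difference of comp9440_c0 from -0.32 to 1.44 as libraries were left out.

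Counts of called components moved more. For the S14 limb difference (0 called) they were 2 after adding 5 to each score, 21 with median-centred libraries, 215 with voom and 8 with no replicate block of matched parts. For the axis difference (0) they were 721 with no filter and 16 with voom. For the 5 limb pairs (9) they were 1 with no filter, 14 with median-centred libraries, 105 with voom and 3 to 10 without 1 pair, the lowest without the posterior bud pair. For the interaction (3) they were 0 with no filter, 6 with voom and 0 to 2 without 1 pair. For the fetal difference (10458) they were 6779 to 9094 without 1 library, the lowest without the metatarsals. The block over matched parts changed no call of the 3 members.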
